A study of Mus musculus with 12 samples.

Results

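Grm2, Grm3, Grm4, Grm5, Grm7 and Grm8 are 6 of the genes that encode metabotropic glutamate receptors, and they were chosen by symbol among the 47069 genes of a count table from mouse cortex. All 6 had enough counts to be tested, as had 17286 genes in all. The 12 mRNA libraries come from frontal cortex (prefrontal in the source label) of C57BL/6 males and form 4 groups of 3. The groups are wild-type mice given vehicle, wild-type mice given chronic clozapine at 10 mg/kg, mice labelled as conditional Hdac2 knockouts given vehicle, and such mice given clozapine at that dose. The knockout genotype is written in the labels as HDAC2(loxP,loxP), CamKIIa-Cre(+,-), a pair of floxed alleles with a Cre transgene whose CamKIIa promoter acts in forebrain excitatory neurons, so other cells of the tissue would keep the gene. The wild-type mice are labelled only as wild type, so whether they carry a floxed allele or Cre is not given, and the age of the mice is not given in the sources used here. Libraries are named by group and the number in their label (knockout vehicle 5): in wild type 1, 3 and 4 had vehicle and 2, 3 and 5 clozapine, and in the labelled knockout 2, 4 and 5 had vehicle and 3, 4 and 5 clozapine. Values per group follow that order.

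Metabotropic glutamate receptors are G protein-coupled receptors that sense glutamate released at synapses and set the strength of transmission more slowly than the glutamate-gated ion channels do. Grm5 encodes a group I receptor (mGlu5), which sits mainly after the synapse, couples to Gq and phospholipase C, and is anchored by Homer and Shank scaffolds. Grm2 and Grm3 encode the group II receptors mGlu2 and mGlu3, and Grm4, Grm7 and Grm8 encode group III receptors. Both of these groups couple to Gi and Go, lower cyclic AMP and, on nerve terminals, restrain glutamate release. Grm3 is also transcribed strongly in astrocytes. Clozapine is an antipsychotic drug that blocks serotonin 5-HT2A receptors among others, and HDAC2 is a histone deacetylase that has been reported to act on the Grm2 promoter under antipsychotic treatment. The design asks whether clozapine changes these genes and whether a labelled loss of Hdac2 in excitatory neurons changes them or their response to the drug.

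Depth was similar across libraries, with total counts between 23408372 and 28069638, the highest in knockout vehicle 5. Replicates differed beyond counting error (chi-square per gene between 4.38 and 10.1 in their 12 pairs), so the spread between libraries sets the precision. Hdac2, the targeted gene, was between 63.4 and 75.7 CPM (counts scaled to library size) in the wild-type libraries and between 70.5 and 76.6 CPM in the labelled knockout libraries. Averaged over treatments its log2 difference was 0.03 (SE 0.04, 95% interval -0.05 to 0.12), with an adjusted p = 0.651 in the quasi-likelihood test of edgeR, where adjusted means over all tested genes by the Benjamini-Hochberg method. The transcript was therefore not detectably lower in the libraries labelled knockout. The counts cover the whole gene and every cell type of the tissue, so a loss of some exons in 1 class of cell would not be checked by them. Every genotype direction here rests on the labels, and in bulk tissue fewer cells of a type and less RNA per cell cannot be told apart.

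Compared per kilobase of annotated exon, transcripts of the group II receptors were the most abundant of the 6 and Grm8 transcripts the least. Over the 12 libraries Grm3 was at 17.6 CPM per kilobase (range 15.3 to 19.6) and Grm2 at 17.03 CPM per kilobase (range 13.4 to 21.1). Grm5 followed at 14.0 CPM per kilobase (range 12.4 to 14.9). The levels of Grm2 and Grm3 overlapped, and those of Grm5 overlapped the lowest Grm2 libraries but stayed below every Grm3 value. Grm7, which encodes a low-affinity receptor of the presynaptic active zone, was at 8.38 CPM per kilobase (range 7.37 to 9.19). Grm4 was at 5.24 CPM per kilobase (range 4.38 to 6.12), and Grm8 at 1.35 CPM per kilobase (range 0.910 to 1.86). The last 3 genes kept their places in every library, each below the lowest value of the gene before it. Of the summed level of the 6 genes, Grm3 made up 27.7%, Grm2 26.6%, Grm5 22.0%, Grm7 13.2%, Grm4 8.27% and Grm8 2.12% on average. The order of the first 3 genes varied: Grm2 led in 6 libraries and Grm3 in 6, and in 1 of the latter Grm5 also exceeded Grm2. The length is that of all annotated exons, which for Grm3 come from 1 transcript of 3049 bases. For Grm2 they come from 4 transcripts (4894 bases) and for Grm5 from 7 (10247 bases). Before division by length Grm5 was the highest, at a mean of 143.6 CPM against 83.4 for Grm2 and 53.8 for Grm3. The order of these 3 genes thus rests on that annotation.

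**Figure D1:**
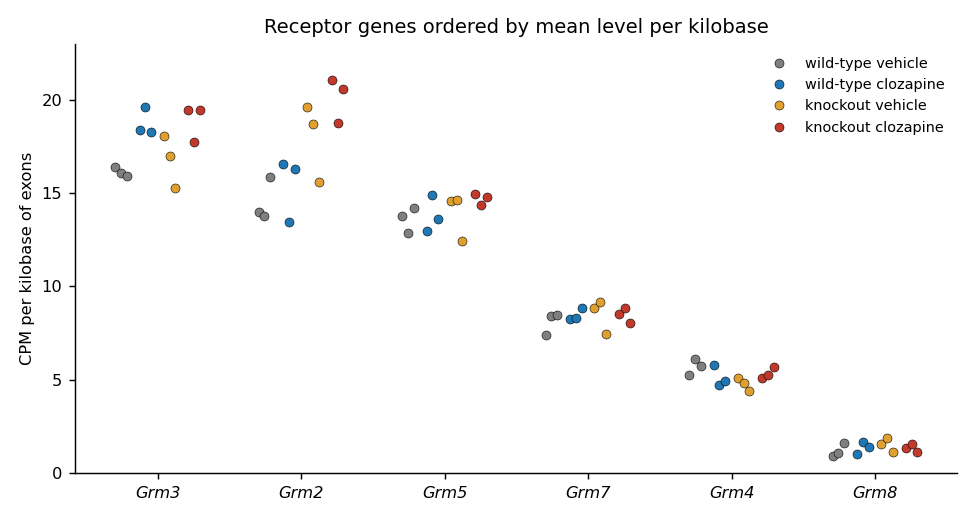
Level of each receptor gene per library in CPM per kilobase of exon (y axis, linear from 0), with genes ordered by their mean and 1 point per library coloured by group. Grm3 and Grm2 lie highest and overlap, Grm5 reaches from 12.4 to 14.9, and Grm7, Grm4 and Grm8 follow without overlap.

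The genes also differed in how steady they were within a group. The SD of log2 levels within groups was 0.0765 for Grm3, 0.0918 for Grm5, 0.106 for Grm7, 0.115 for Grm4 and 0.138 for Grm2, around a median of 0.105 over all tested genes. For Grm8 it was 0.323, a value above that of 98.8% of tested genes, while its mean level stood at percentile 46.5. The mean levels of the others stood between percentile 64.1 (Grm4) and percentile 91 (Grm5). Knockout vehicle 5 was the lowest library of its group for all 6 genes.

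Among the 6 receptors, Grm2 had a higher level in the labelled knockout than in wild type, and no other member passed the test in any of 7 comparisons. Grm2 (ENSMUSG00000023192.12, chromosome 9, 106643095 to 106656082, minus strand, GRCm38) measured 68.6, 67.5 and 77.5 CPM in the wild-type libraries under vehicle and 81.2, 65.8 and 79.8 CPM in those under clozapine. The labelled knockout libraries gave 96.0, 91.7 and 76.5 CPM under vehicle and 103, 91.9 and 101 CPM under clozapine. The 3 knockout clozapine libraries and 2 of the knockout vehicle libraries lay above every wild-type value, and knockout vehicle 5 lay among the wild-type libraries. The group means were 71.2 ± 5.52, 75.6 ± 8.49, 88.1 ± 10.3 and 98.6 ± 5.92 CPM in the same order (SD, n = 3 each).

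Averaged over treatments, Grm2 was 27.0% higher in the labelled knockout (95% interval 14.95 to 40.2%), a log2 difference of 0.34 (SE 0.07, 95% interval 0.20 to 0.49, edgeR adjusted p = 0.00558, n = 6 against 6). In this comparison 1 of the 6 receptor genes passed, where 10.5% of all tested genes passed and 5.52% were higher. Under vehicle the Grm2 difference was 0.31 (SE 0.09, 95% interval 0.10 to 0.51, edgeR adjusted p = 0.0596). Under clozapine it was 0.38 (SE 0.09, 95% interval 0.18 to 0.59, edgeR adjusted p = 0.0542), and there the groups did not overlap. How many of all tested genes separated in this way was not counted. Neither single comparison passed the threshold of 0.05. The background is 9.16% of genes passing under vehicle and 2% under clozapine.

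Some left-out libraries moved those comparisons across the threshold, 3 of 12 in each. Without knockout vehicle 5 the vehicle difference in Grm2 was 0.40 (edgeR adjusted p = 0.0156), and it also passed without wild-type vehicle 4 (edgeR adjusted p = 0.0364) or wild-type clozapine 3 (edgeR adjusted p = 0.0292). The clozapine comparison passed when wild-type vehicle 4 was left out (edgeR adjusted p = 0.0417), and likewise for knockout vehicle 2 (edgeR adjusted p = 0.0433) and knockout vehicle 5 (edgeR adjusted p = 0.0181). Over the 12 left-out libraries the vehicle difference lay between 0.24 and 0.40, with an edgeR adjusted p as high as 0.205, and the clozapine difference between 0.29 and 0.44, with one as high as 0.22. DESeq2 called Grm2 in both comparisons, with adjusted p = 0.0272 under vehicle, where it called 10.5% of its genes, and 0.00637 under clozapine, where it called 3.5%. The averaged Grm2 difference passed under each of the 17 alternatives run, with a range of 0.30 to 0.39 and adjusted p from 4.43e-05 to 0.0333.

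**Figure D2:**
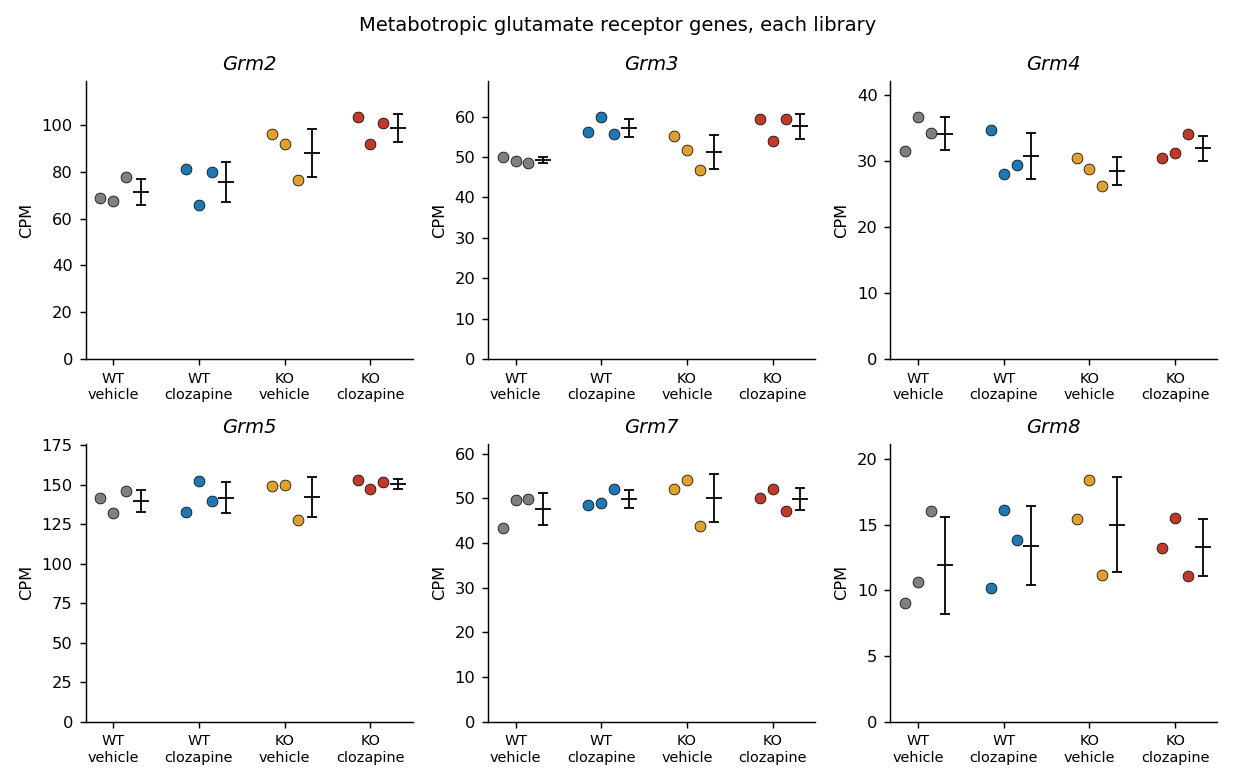
CPM of each receptor gene (y axes, linear from 0) in the 4 groups, where points are libraries and the bars give mean and SD of 3 libraries. Grm2 lies higher in the labelled knockout groups than in wild type except for 1 knockout vehicle library at 76.5 CPM, and Grm8 spreads widely within every group.

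With clozapine no change in Grm2 was detectable. Its log2 change was 0.09 in wild type (SE 0.10, 95% interval -0.12 to 0.29, edgeR adjusted p = 0.797) and 0.16 in the labelled knockout (SE 0.09, 95% interval -0.04 to 0.37, edgeR adjusted p = 0.519). The interval in wild type reaches from -7.87% to 22.3%. The interaction, by how much more clozapine changed the labelled knockout than wild type, was 0.08 (SE 0.13, 95% interval -0.21 to 0.37, edgeR adjusted p = 0.861). A fall of Grm2 with clozapine was thus not measured in either genotype, and a difference between genotypes in its response was not detectable with 3 libraries a group.

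The 250 bases before the RefSeq start of Grm2 are shown with those of Grm3, its group II relative, to show the sequence before the gene that passed for genotype beside that of its nearest relative. Both are given 5′ to 3′ on the minus strand of GRCm38.p6, Grm2 at chr9:106656110-106656359 and Grm3 at chr5:9725353-9725602. Capitals mark the GC box GGGCGG, a motif bound by Sp family factors, which was searched on both strands.
Grm2: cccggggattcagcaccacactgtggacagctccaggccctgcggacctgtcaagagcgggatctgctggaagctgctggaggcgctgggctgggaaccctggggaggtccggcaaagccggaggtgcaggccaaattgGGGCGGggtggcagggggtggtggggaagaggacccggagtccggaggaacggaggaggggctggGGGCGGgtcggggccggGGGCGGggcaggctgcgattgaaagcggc
Grm3: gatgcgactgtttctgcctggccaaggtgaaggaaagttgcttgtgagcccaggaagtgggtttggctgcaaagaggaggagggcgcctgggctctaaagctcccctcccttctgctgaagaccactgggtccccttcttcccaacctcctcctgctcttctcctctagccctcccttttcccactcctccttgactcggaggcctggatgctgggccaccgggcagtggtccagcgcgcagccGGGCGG
The Grm2 window held 3 GC boxes and 16 CpG dinucleotides, and the Grm3 window 1 GC box and 8 CpG dinucleotides. At least 1 GC box is found in 32.7% of the 32851 windows of that length in the RefSeq table, and the median window has 6 CpG dinucleotides (quartiles 2 and 16). G and C made up 71.2% of the bases for Grm2 and 62.4% for Grm3, against a median of 52.4%. Of the 6 receptor genes, 4 have entries in the table, 7 in all. Of the other members, the windows of Grm7 held 1 GC box each and 8 and 9 CpG dinucleotides, and those of Grm8 held 2, 8 and 29, with 1 GC box in the last. Neither gene passed for genotype. Binding and acetylation were not analysed here, so the motifs describe the sequence only.

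Grm3, the other group II receptor, had higher means in the clozapine groups than in the vehicle groups, without passing the test. Grm3 (ENSMUSG00000003974.6, chromosome 5, 9485541 to 9725170, minus strand) measured 50.01, 49.1 and 48.5 CPM in the wild-type libraries under vehicle and 56.1, 59.8 and 55.7 CPM in those under clozapine. The labelled knockout libraries gave 55.1, 51.8 and 46.7 CPM under vehicle and 59.3, 54.1 and 59.3 CPM under clozapine. In wild type every clozapine library lay above every vehicle library, whereas in the labelled knockout the treatments overlapped. How many of all tested genes separated in this way was not counted. In the wild-type comparison 0.816% of all tested genes passed, and 11.6% had an unadjusted p under 0.05 by edgeR. The change with clozapine was 0.22 in wild type (SE 0.06, 95% interval 0.08 to 0.35, unadjusted p = 0.00313, edgeR adjusted p = 0.136) and 0.17 in the labelled knockout (SE 0.06, 95% interval 0.04 to 0.30, edgeR adjusted p = 0.262). Averaged over genotypes Grm3 was 14.4% higher with clozapine, a log2 change of 0.19 (SE 0.04, 95% interval 0.10 to 0.29, unadjusted p = 0.000447, edgeR adjusted p = 0.106). That comparison called 0.15% of genes with edgeR, while DESeq2 called 1.4%, Grm3 among them (adjusted p = 0.0225). The adjusted p of this averaged change lay between 0.021 and 0.239 over its alternatives and passed in 2 of 17.

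No genotype difference in Grm3 was detectable. The genotypes differed by 0.06 with vehicle (edgeR adjusted p = 0.649) and by 0.01 with clozapine (edgeR adjusted p = 0.962), and the averaged interval ran from -4.15% to 9.18%. The interaction was -0.05 (edgeR adjusted p = 0.878). Since Grm3 is also a gene of astrocytes, the astrocyte markers are given beside it. Of 8 markers (Aqp4, Gfap, Aldh1l1, Slc1a3, Gjb6, Slc4a4, Fgfr3 and Aldoc) none passed for clozapine averaged over genotypes by edgeR, with a median change of 0.02. Their summed level was between 1808 and 2037 CPM over the 12 libraries, and the ranges of the 4 groups overlapped. Of other cell types, red blood cell and meningeal fibroblast markers had positive changes with clozapine averaged over genotypes in 5 of 5 and 6 of 6 genes (medians 0.54 and 0.27), none of which passed by edgeR. Summed red blood cell markers were between 138 and 180.4 CPM in wild type under vehicle and between 212 and 437 CPM under clozapine, without overlap as for Grm3. In the labelled knockout they were between 139 and 205 CPM and between 122 and 303 CPM. Positive changes were held by 5 of 6 upper-layer, 3 of 6 excitatory neuron and 0 of 3 choroid plexus markers (medians 0.12, -0.01 and -1.14). None of these passed by edgeR. Summed excitatory markers in wild type were lower under clozapine (8204 to 8482 CPM) than under vehicle (8683 to 9627 CPM). In the labelled knockout they were higher under clozapine (9275 to 9665 CPM against 8160 to 8923 CPM). The part of these markers in the Grm3 values was not tested.

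The balance of the group II genes separated the libraries by labelled genotype. The ratio of Grm2 to Grm3 per kilobase in wild type was 0.855, 0.857 and 0.996 under vehicle and 0.901, 0.685 and 0.893 under clozapine. Labelled knockout libraries gave 1.09, 1.10 and 1.02 under vehicle and 1.08, 1.06 and 1.06 under clozapine. All 6 wild-type libraries lay below 1 and all 6 labelled knockout libraries above 1, knockout vehicle 5 included. The gap was narrow, from 0.996 in wild-type vehicle 4 to 1.02 in knockout vehicle 5. That it falls at 1 depends on the annotated exon lengths. How many ratios of other gene pairs separated in this way was not counted. The ratio was formed after the Grm2 levels had been seen and is a description with no test. As a share of the summed level per kilobase, Grm2 made up 24.5% in both wild-type groups, 28.3% in knockout vehicle and 29.2% in knockout clozapine.

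**Figure D3:**
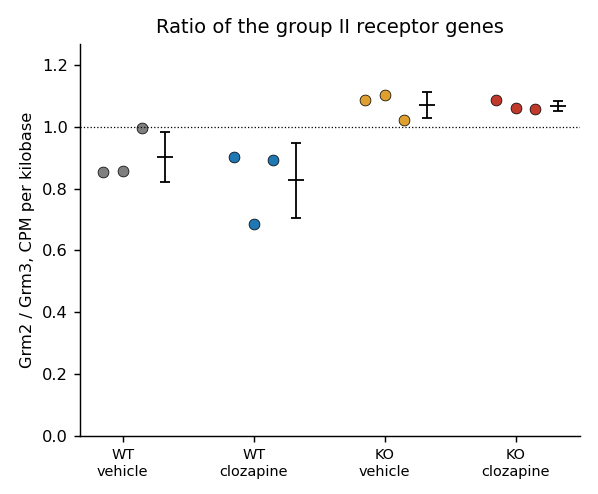
Ratio of Grm2 to Grm3, each in CPM per kilobase (y axis, linear from 0), where points are libraries, bars are mean and SD of 3 libraries and the dotted line marks equal levels. Wild-type libraries lie between 0.685 and 0.996 and labelled knockout libraries between 1.02 and 1.10.

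Grm4, a group III receptor gene, had lower values in the labelled knockout than in wild type under vehicle alone, and this did not pass. Grm4 (ENSMUSG00000063239.16, chromosome 17, 27422387 to 27521403, minus strand) measured 31.5, 36.6 and 34.3 CPM in the wild-type libraries under vehicle and 34.7, 28.1 and 29.4 CPM in those under clozapine. The labelled knockout libraries gave 30.5, 28.8 and 26.2 CPM under vehicle and 30.4, 31.3 and 34.0 CPM under clozapine. The vehicle groups did not overlap, and the clozapine groups did. How many of all tested genes separated in this way was not counted. Between the genotypes under vehicle 23.8% of all tested genes had an unadjusted p under 0.05 by edgeR. The difference was -0.26 under vehicle (SE 0.08, 95% interval -0.44 to -0.08, unadjusted p = 0.00647, edgeR adjusted p = 0.0611), whereas clozapine-treated libraries differed by 0.05 (edgeR adjusted p = 0.808). Its interaction was 0.32 (SE 0.12, 95% interval 0.06 to 0.57, unadjusted p = 0.017, edgeR adjusted p = 0.256), in a comparison that called 0.654% of genes. The vehicle difference in Grm4 passed without wild-type clozapine 2 (edgeR adjusted p = 0.0309), and over all left-out libraries it lay between -0.31 and -0.21.

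Grm5, Grm7 and Grm8 did not pass in any comparison, and the first 2 had narrower intervals than Grm8. Grm5 (ENSMUSG00000049583.14, chromosome 7, 87584168 to 88134907, plus strand) was at 139.7 ± 7.11 (vehicle) and 142 ± 9.93 CPM (clozapine) in wild type, and at 142 ± 12.8 and 150.5 ± 3.08 CPM in the labelled knockout (SD, n = 3 each). Its libraries ranged from 127 to 153 CPM, and its smallest edgeR adjusted p was 0.499, for genotype averaged over treatments, where the interval ran from -2.96% to 11.3%. Grm7 (ENSMUSG00000056755.13, chromosome 6, 110645581 to 111567230, plus strand) was at 47.6 ± 3.63, 49.8 ± 1.93, 50.03 ± 5.43 and 49.8 ± 2.47 CPM in that order, and its libraries ranged from 43.4 to 54.1 CPM. The averaged genotype interval of Grm7 ran from -5.33% to 10.9% (edgeR adjusted p = 0.739). For the interaction the intervals were wider, from -9.11% to 19.7% for Grm5 and from -18.6% to 11.7% for Grm7. For both genes the groups overlapped in every comparison of genotype.

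Grm8 could not be placed as closely. Grm8 (ENSMUSG00000024211.15, chromosome 6, 27275119 to 28135178, minus strand) measured 9.01, 10.6 and 16.1 CPM in wild type under vehicle and 10.2, 16.2 and 13.8 CPM under clozapine. In the labelled knockout it reached 15.4, 18.4 and 11.2 CPM under vehicle and 13.2, 15.5 and 11.1 CPM under clozapine. The groups overlapped throughout. Under vehicle the labelled knockout differed by 0.33 (95% interval -0.26 to 0.91, edgeR adjusted p = 0.512), an interval from -16.5% to 88.2%. A change in Grm8 of the size measured for Grm2 would therefore not be detectable here.

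**Figure D4:**
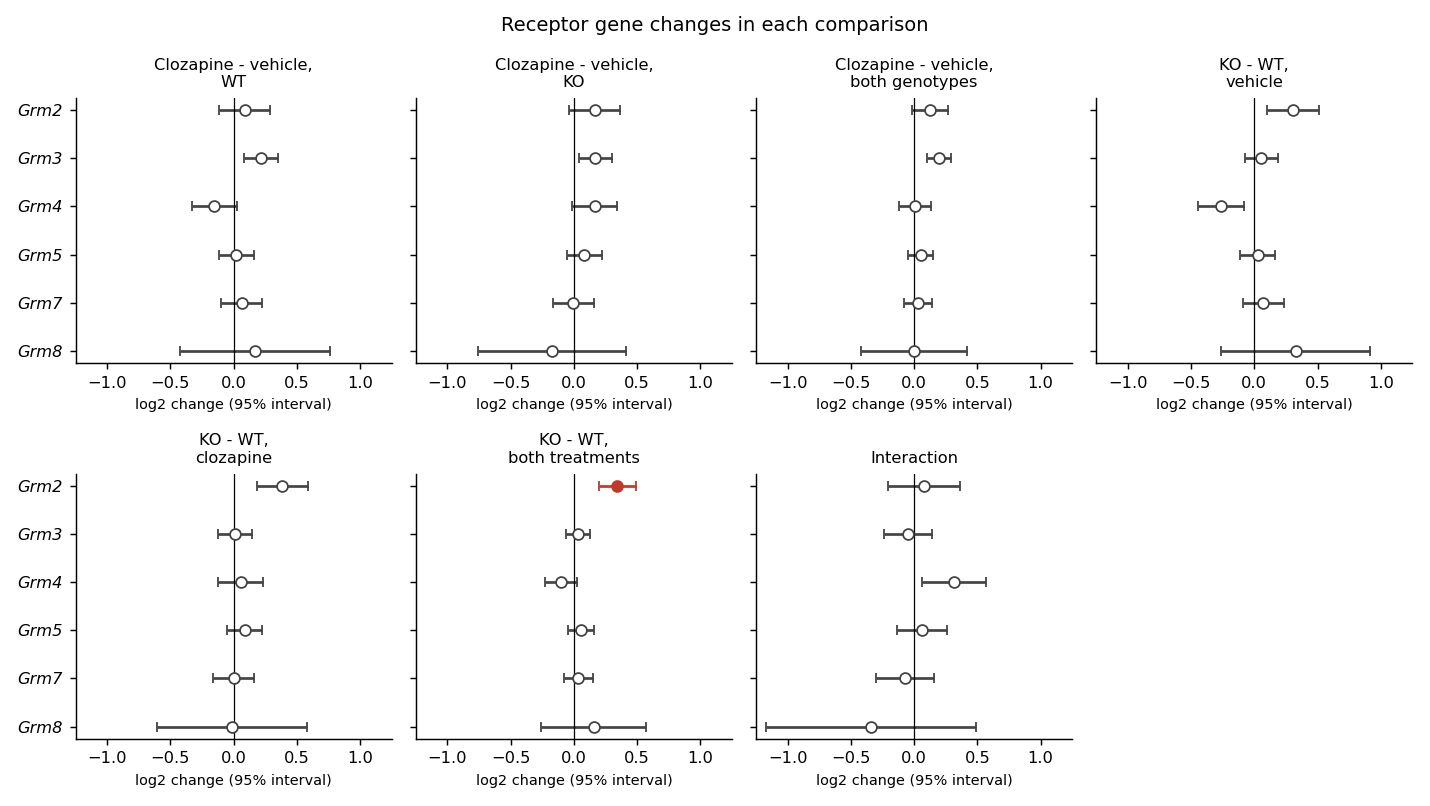
Log2 change of each receptor gene (x axes) with its 95% interval in the 7 comparisons, from 1 edgeR fit of 12 libraries. The filled red point marks the 1 value with an adjusted p under 0.05, Grm2 for genotype averaged over both treatments (0.34), and Grm8 has the widest intervals.

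Counted over the 6 genes, the edgeR fit called 0 for clozapine in wild type, 0 for clozapine in the labelled knockout, 0 for either genotype comparison, 0 for the interaction, 0 for clozapine averaged over genotypes and 1 for genotype averaged over treatments. At an unadjusted p under 0.05 the genotype comparison under vehicle held 2 of the 6, where 23.8% of all tested genes did. Each other comparison held 1 of the 6, where the share of all tested genes was between 11.2% and 25.5%, so these counts lie near the background. DESeq2 called 1 for genotype under vehicle, 1 for genotype under clozapine and 1 for clozapine averaged over genotypes. The share of all tested genes called was 0.0231% for clozapine in the labelled knockout, the smallest of the 7. The comparisons for clozapine in each genotype and for genotype under each treatment share groups of libraries, so their values are given side by side only.

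Across the 12 libraries the receptor genes did not all vary together. Pearson's r of log2(CPM + 1) was 0.779 for Grm7 with Grm8, 0.638 for Grm3 with Grm5 and 0.598 for Grm5 with Grm8, and it was -0.362 for Grm4 with Grm8 and 0.44 for Grm2 with Grm3. With group means removed, r was 0.772 for Grm7 with Grm8, 0.761 for Grm3 with Grm5, 0.691 for Grm5 with Grm8, -0.14 for Grm4 with Grm8 and 0.372 for Grm2 with Grm3. For Grm2 with Grm4 it was -0.0158 over all libraries and 0.577 with group means removed. These are descriptions over libraries that share their depth scaling and fall into 4 groups, with no p. Among 13284 other genes, the 5 most like Grm2 were Srpx2 (r = 0.942), Prrc1 (0.936), Rab3il1 (0.927), Zdhhc8 (0.927) and Hey1 (0.925). Rab3il1 encodes an exchange factor for Rab GTPases, Zdhhc8 a palmitoyltransferase and Hey1 a transcriptional repressor. Zdhhc8, the most abundant of them, had group means of 171, 172, 187 and 206 CPM in the order used for Grm2. The gene most like each other member was Sgtb for Grm3 (0.949), Ubac1 for Grm4 (0.895), Pcdh10 for Grm5 (0.914), Sgta for Grm7 (0.882) and Ephb6 for Grm8 (0.941).

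Genes that act with these receptors were taken from 10 lists of 72 genes, of which 70 were tested. The lists hold other receptors of the family, G proteins, scaffolds and binding proteins, phospholipase and calcium signalling, cyclic AMP signalling, regulators of G protein signalling with kinases and arrestins, effector channels, transsynaptic partners, glutamate transport and supply, and Htr2a. For genotype averaged over treatments 4 of the 70 were higher and 8 lower, where 5.52% and 5.01% of all tested genes were, and the median change was -0.02. The count of higher genes was 2 without wild-type clozapine 3 or knockout clozapine 3 and 9 without knockout vehicle 5. Under vehicle 1 was higher and 14 lower, where 4.01% and 5.15% of all tested genes were, with a median of -0.06. Without wild-type vehicle 3 the lower count was 9, and over the other left-out libraries the higher count was 0 (without wild-type vehicle 1, knockout vehicle 2 or knockout vehicle 4) to 2. Under clozapine 3 were higher, where 1.48% of all tested genes were. That count was 1 without wild-type clozapine 3, knockout clozapine 3 or knockout clozapine 5 and 8 without knockout vehicle 5.

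Homer1 and Shank2, 2 of the 13 tested scaffold and binding protein genes, were lower in the labelled knockout averaged over treatments. Homer1, whose long products link mGlu5 to its calcium stores and whose short product is induced by activity, measured 450.3, 398 and 347 CPM in wild type under vehicle and 195, 348 and 222 CPM under clozapine. It was between 169 and 212 CPM in all 6 labelled knockout libraries. Its level fell by 0.79 on the log2 scale averaged over treatments (edgeR adjusted p = 0.0102), with a difference of -1.10 under vehicle (edgeR adjusted p = 0.0133) and of -0.47 among clozapine libraries, which did not pass (edgeR adjusted p = 0.302). The vehicle call for Homer1 was lost without knockout vehicle 2 (edgeR adjusted p = 0.0531) or knockout vehicle 5 (edgeR adjusted p = 0.0576). Gene-level counts do not separate the long and short products. Shank2, a postsynaptic scaffold, differed by -0.34 averaged over treatments (edgeR adjusted p = 0.00102) and by -0.59 under vehicle (edgeR adjusted p = 0.00037), while clozapine libraries differed by -0.09 (211 against 226 CPM, edgeR adjusted p = 0.602). In the same list 1 gene, Caln1, was higher in the averaged comparison.

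Regulators and effectors passed in both directions for genotype averaged over treatments, where 5.52% of all tested genes were higher and 5.01% lower. Of 9 regulators, kinases and arrestins 1 was higher and 3 lower. Of 5 effector channels 1 was lower, of 10 phospholipase and calcium genes 2 were lower, and of 8 cyclic AMP genes 1 was higher. Rgs4, which speeds the end of Gi and Gq signals, was between 576 and 693 CPM in wild type and between 429 and 569 CPM in the labelled knockout, an averaged difference of -0.37 (edgeR adjusted p = 0.000966) with no overlap. It was -0.45 under vehicle (edgeR adjusted p = 0.00375) and -0.29 among clozapine libraries, where it did not pass (edgeR adjusted p = 0.0789). The receptor kinase gene Grk2 differed by -0.15 on average (edgeR adjusted p = 0.00614), with -0.28 under vehicle (284 against 345 CPM, edgeR adjusted p = 0.00128) and -0.02 among clozapine libraries (305 against 308 CPM, edgeR adjusted p = 0.883). Dagla, which makes the endocannabinoid released after group I activation, differed by -0.24 on average (edgeR adjusted p = 0.00622). Its difference was -0.49 under vehicle (143 against 201 CPM, edgeR adjusted p = 0.000627) and 0.02 among clozapine libraries (164 against 162 CPM, edgeR adjusted p = 0.931). Adcy5, an adenylyl cyclase that Gi inhibits, was higher by 0.30 averaged over treatments (edgeR adjusted p = 0.000301), and its wild-type libraries (137 to 158 CPM) lay below its labelled knockout libraries (163 to 188 CPM). How many of all tested genes separated by genotype as Rgs4 and Adcy5 did was not counted. Under vehicle the channel genes Cacna1a, a presynaptic calcium channel subunit, and Kcnj6, a G protein-gated potassium channel subunit, differed by -0.32 (edgeR adjusted p = 0.00179) and -0.68 (edgeR adjusted p = 0.00251). Among clozapine libraries they differed by 0.14 (edgeR adjusted p = 0.212) and 0.05 (edgeR adjusted p = 0.865). Under clozapine Adcy5 (0.36, edgeR adjusted p = 0.00419), Rgs14 (0.38, edgeR adjusted p = 0.0165) and Caln1 (0.33, edgeR adjusted p = 0.0303) passed. Rgs14 lost its call without wild-type clozapine 3 (edgeR adjusted p = 0.0746), knockout clozapine 3 (edgeR adjusted p = 0.109) or knockout clozapine 5 (edgeR adjusted p = 0.0543). Caln1 lost its call without wild-type clozapine 3 or 5 or knockout clozapine 3 or 5 (edgeR adjusted p from 0.0821 to 0.135).

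Htr2a, the gene of the serotonin 5-HT2A receptor that has been reported to form a complex with mGlu2, was also higher in the labelled knockout. It measured 17.7, 18.9 and 22.4 CPM in the wild-type libraries under vehicle and 17.7, 18.6 and 18.3 CPM in those under clozapine. The labelled knockout libraries gave 27.5, 38.9 and 19.3 CPM under vehicle and 31.2, 31.2 and 29.95 CPM under clozapine. As for Grm2, knockout vehicle 5 lay within the wild-type range and the other 5 labelled knockout libraries above it. The averaged difference was 0.65 (SE 0.15, edgeR adjusted p = 0.0214), and it was lost without wild-type vehicle 3 (edgeR adjusted p = 0.0579), wild-type clozapine 3 (edgeR adjusted p = 0.0509) or knockout clozapine 3 (edgeR adjusted p = 0.0539). The Htr2a difference did not pass with vehicle (0.54, edgeR adjusted p = 0.148) or clozapine (0.76, edgeR adjusted p = 0.107).

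**Figure D5:**
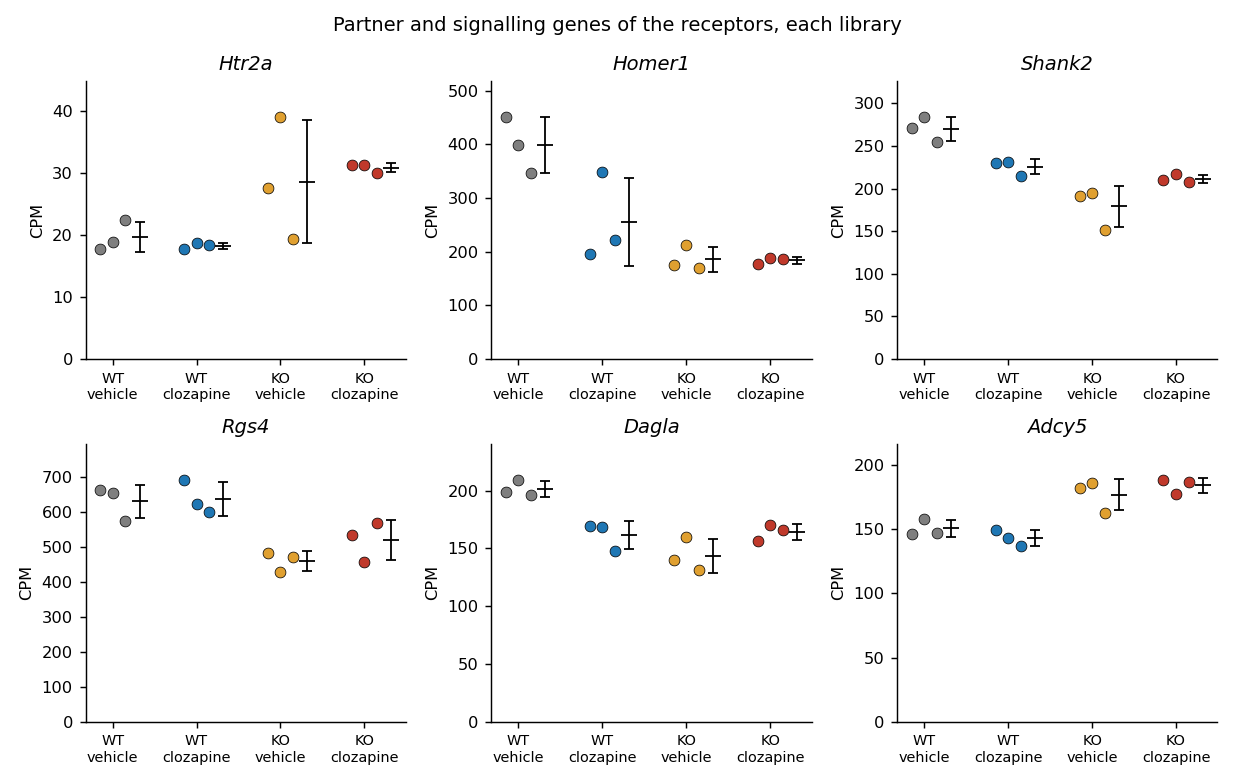
CPM of 6 genes that act with the receptors (y axes, linear from 0) in the 4 groups, where points are libraries and bars give mean and SD of 3 libraries. Homer1, Shank2 and Rgs4 have lower means and Adcy5 higher values in the labelled knockout, and Htr2a is higher there except in 1 library at 19.3 CPM.

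Clozapine and the interaction touched few of these genes, and each of those calls was lost without some single library. In wild type 1 of the 70, Dagla, fell by 0.31 on the log2 scale with clozapine (edgeR adjusted p = 0.0455), where 0.625% of all tested genes were lower. That call held without knockout vehicle 4 or knockout vehicle 5 and was lost without any other single library (edgeR adjusted p from 0.0567 to 0.187), while the list's lower count was 4 without knockout vehicle 5. In the labelled knockout none of the 70 passed by edgeR, against 7 higher by DESeq2, where it called 2.39% of its genes higher, and the smallest adjusted p were those of Cacna1a (0.30, edgeR adjusted p = 0.0674) and Kcnj6 (0.52, edgeR adjusted p = 0.0914). The interaction was positive and passed for 4 of the 70, where it was so for 0.526% of all tested genes: Cacna1a (0.46, edgeR adjusted p = 0.015), Dagla (0.51, edgeR adjusted p = 0.0335), Shank3 (0.47, edgeR adjusted p = 0.0387) and Shank2 (0.50, edgeR adjusted p = 0.0477). This count was 0 without wild-type vehicle 3 or knockout clozapine 5, 1 or 2 without knockout vehicle 2 or 5, knockout clozapine 3 or 4, wild-type vehicle 1 or wild-type clozapine 5, and 7 without knockout vehicle 4. Averaged over genotypes no gene of the lists passed for clozapine by edgeR, and the smallest adjusted p were those of Adcy1 (0.17, edgeR adjusted p = 0.301) and Plcb4 (0.14, edgeR adjusted p = 0.314). Grm6, a receptor gene of the retina, had too few counts to be tested.

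Markers of the cells that carry these receptors were measured beside them. For genotype averaged over treatments none of 6 excitatory neuron markers passed by edgeR (median -0.05). Of 8 deep-layer markers 1 was higher (median 0.04), and of 5 oligodendrocyte precursor markers 2 were higher. Of 7 microglia markers 1 was higher, and of 6 endothelial markers 2 were lower. In that comparison 5.52% of all tested genes were higher and 5.01% lower. The lists of upper-layer neurons, interneurons, astrocytes, oligodendrocytes, meningeal fibroblasts, choroid plexus, red blood cells, striatal projection neurons, olfactory bulb neurons and thalamic neurons held no marker past the threshold in that comparison by edgeR. Under vehicle 15 of the 70 pathway genes passed, and 4.01% of all tested genes were higher and 5.15% lower. There 2 of 8 deep-layer markers were higher (median 0.37) and 2 of 6 upper-layer markers lower (median -0.11). Of 5 oligodendrocyte precursor markers 2 were higher, as were 1 of 7 microglia and 1 of 6 thalamic markers. Lower were 2 of 6 endothelial and 1 of 6 striatal markers. Under clozapine 1 of 6 excitatory (median 0.01) and 1 of 6 upper-layer markers (median 0.06) were higher, where 1.48% of all tested genes were. The other lists held no marker past the threshold there by edgeR. Summed excitatory markers under vehicle were between 8683 and 9627 CPM in wild type and between 8160 and 8923 CPM in the labelled knockout. Under clozapine they were between 8204 and 8482 CPM and between 9275 and 9665 CPM, without overlap. In the interaction 1 of 8 deep-layer markers was negative and passed (median -0.61, with 0 of 8 positive). Of 6 upper-layer markers 1 was positive and passed (median 0.20, with 6 of 6 positive). Among all tested genes 0.526% were positive and passed there, and 0.127% were negative and passed. Under vehicle the summed deep-layer markers ranged from 104 to 183 CPM in wild type and from 161 to 227 CPM in the labelled knockout. Under clozapine they ranged from 148 to 213 CPM in wild type and from 145 to 167 CPM in the labelled knockout. The part of these cell type markers in the Grm2 difference and in the pathway changes was not tested.

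Parts of 3 members overlap other genes. The exons of Grm2 overlap those of the antisense gene Gm28111 by 470 bases, and that gene had at most 2 counts in a library. Those of Grm7 overlap the antisense gene Gm20387 by 130 bases, and it had between 31 and 45 counts. Those of Grm8 hold Mir592 (96 bases), which had 0 counts throughout. Whether the counting used strand is not given in the sources used here.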

How the data were processed

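12 mRNA libraries of mouse frontal cortex were analysed from 1 deposited table of estimated counts per gene, of which 7.13 to 7.64% per library are not whole. Per the submitters' processing notes, STAR 2.5.1b aligned reads to GRCm38 and featureCounts counted them; how reads of several genes were shared, and the use of strand, are not given in the sources used here. Counts were rounded, identifiers matched to GENCODE M21 (46574 of 47069 named), and genes kept by filterByExpr (17286, 99.93% of counts). edgeR 4.0.16 in R 4.3.3 fitted all 12 libraries (TMM, robust quasi-likelihood, BH adjustment over tested genes, threshold 0.05) and gave 7 contrasts. CPM are counts over TMM-scaled library size, and errors are SD of 3 libraries. Groups that do not overlap are described only, since the share of all tested genes without overlap was not counted. The labels do not say how the libraries of a group were obtained, so p-values measure the spread between them, which may be technical.

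Members, pathway lists and cell marker lists were chosen with earlier results of these data known. Named genes follow a rule: the members and Hdac2; from the pathway lists, per contrast, up to 6 past the threshold in order of p, or, with none past it, the 2 nearest; and the genes with the highest r, predicted genes and pseudogenes left out, at a mean of at least 1 CPM. Caln1 is also named beside its list's averaged count. Alternatives were RLE size factors, no low-count filter, a replicate block, a length and GC correction (17197 genes), the 2 groups alone, leaving out each library, and DESeq2 1.42.0. The fit was tested on simulated counts. The result for 1 gene of the lists is not reported here.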

Additional observations from a re-analysis of the deposited data

How the results depend on the processing

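For the averaged genotype comparison, 1 receptor gene was called under each alternative run. For genotype under vehicle the count moved from 0 to 1 without the low-count filter (Grm4, edgeR adjusted p = 0.0204), with the replicate block (Grm4) and with DESeq2 (Grm2), and over left-out libraries it was 0 to 1. For genotype under clozapine it moved from 0 to 1 in the 2 groups alone (Grm2, edgeR adjusted p = 0.038) and with DESeq2, and over left-out libraries it was 0 to 1. For clozapine averaged over genotypes it moved from 0 to 1 without the low-count filter (Grm3, edgeR adjusted p = 0.021) and with DESeq2. The cause of these moves was not tested.

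None of the log2 changes whose direction turned had passed the test. With the length and GC correction these were Grm5 for clozapine in wild type (-0.0107), Grm4 (-0.0313) and Grm8 (0.0433) for genotype under clozapine, and the Grm3 interaction (0.0235). Grm7 for genotype under clozapine turned with RLE size factors (-0.001), the replicate block (-0.0262) and DESeq2 (-8e-04). With the replicate block the Grm5 interaction (-0.0199) and the clozapine average of Grm4 (-0.0243) and Grm8 (0.0468) turned. Over left-out libraries the log2 changes that turned had these ranges. For clozapine in wild type Grm5 ranged from -0.0347 to 0.06. For clozapine in the labelled knockout Grm7 ranged from -0.0931 to 0.0568 and Grm8 from -0.3512 to 0.0011. For genotype under vehicle Grm5 ranged from -0.015 to 0.0978. For genotype under clozapine Grm3 ranged from -0.0124 to 0.0524, Grm4 from -0.0061 to 0.1537, Grm7 from -0.0329 to 0.0389 and Grm8 from -0.173 to 0.1428. For the interaction Grm2 ranged from -0.0138 to 0.1429, Grm3 from -0.1094 to 0.0061 and Grm5 from -0.012 to 0.1174. For clozapine averaged over genotypes Grm4 ranged from -0.0433 to 0.0369, Grm7 from -0.0151 to 0.0609 and Grm8 from -0.0927 to 0.1331. Of 504 values with a library left out, 461 kept direction and call, 7 gained a call and 36 turned. DESeq2 gave no adjusted p for the Grm8 interaction.

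The labels do not say that a replicate number ties libraries of different groups. Same-numbered libraries of different groups had correlated deviations of -0.0883 to 0.192, over 0.1 in 3 of 10 pairs. Other pairs had -0.271 to 0.207, over 0.1 in 7 of 44. With so few pairs and overlapping ranges, these values cannot settle whether the numbers tie libraries. With the replicate block Grm2 under vehicle differed by 0.19 (edgeR adjusted p = 0.462) and Grm4 by -0.41 (edgeR adjusted p = 0.0287), and Homer1 under vehicle (adjusted p = 0.141), Cacna1a in the interaction (adjusted p = 0.0907), Rgs14 under clozapine (adjusted p = 0.0522) and Dagla under clozapine in wild type (adjusted p = 0.373) lost their calls. The block moved the pathway genes higher in the interaction from 4 to 0 (0.0347% of all genes) and those higher for clozapine in the labelled knockout from 0 to 5 (0.625%).

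The pathway genes higher in the interaction were 9 without the low-count filter, where 0.807% of all genes were, and 12 with DESeq2, where 3.84% were. Those higher for clozapine in the labelled knockout were 6 (0.531%) and 7 (2.39%). For genotype under clozapine the higher count was 5 without the filter (1.31%), 7 in the 2 groups alone (1.63%) and 6 with DESeq2 (2.31%). With 3 libraries a group, changes of Grm8 are the least well bounded.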

Other observations

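The genes near the receptors on their chromosomes were looked at after their values had been seen. Of 24 tested genes within 500 kb of Grm2, Manf passed for genotype averaged over treatments and was lower, and the median log2 difference of the 24 was -0.01. Within the same distance Dmtf1, 1 of 5 tested genes near Grm3, was lower, and Snd1, 1 of 7 near Grm8, was higher. None of the 21 tested genes near Grm4, the 2 near Grm5 or the 1 near Grm7 passed. Of all tested genes 5.01% were lower and 5.52% higher in this comparison.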
